A study of Mus musculus with 13 samples.

Results

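The binding of CTCF was compared between quiescent and proliferating NU1 cells in the 4 CTCF libraries of a series of 12 chromatin immunoprecipitation sequencing (ChIP-seq) libraries. Quiescent cells gave 2 lists of peaks and proliferating cells 2, and the other 8 libraries mapped STAG1 and STAG2, the alternative STAG subunits of cohesin, in the same states. NU1 is a mouse urothelial line that became immortal by serial passaging. All groups carry the genotype WT. Quiescent cells had been grown to confluence and then kept in complete medium with 1 uM rosiglitazone, a PPAR gamma agonist, and 0.5 uM erlotinib, an EGF receptor kinase inhibitor, and the labels name no drug for proliferating cells. Confluence, the drugs and the exit from the cycle therefore cannot be told apart. The 2 biological replicates of a state come from 1 line, so the spread between them is that of cultures and precipitations and not of animals. Each precipitation used 25 ug of a CTCF antibody (Millipore, 07-729) and 550 ug of chromatin.

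CTCF is a zinc finger protein that binds a long DNA motif. Cohesin extrudes DNA loops and stops at CTCF in a way that depends on the orientation of the motif, so paired CTCF sites mark loop anchors and domain borders and insulate promoters from enhancers outside the loop. Most CTCF sites are shared among cell types, and many promoters carry CTCF. As the peak lists hold no expression values, the urothelial label could not be checked by its markers' expression. Among 10 epithelial markers, Krt8, Krt18, Cdh1 and Epcam had CTCF at a gene end in all 4 libraries, whereas Krt14, Trp63, Gata3 and Upk1b had it in none.

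The sequence that CTCF recognises was searched by its central core, which reads CCA, then any 2 bases, then AG, any 2 bases and GGC, on both strands of RefSeq promoter windows (GRCm38.p6, the same build as mm10), each running from 250 bases before to 50 bases after a start. The following 60-base stretches show promoter cores beneath sites that differ in fate: 3 that quiescent cells lacked, 2 that they alone had, and 3 held in every library. Capitals mark the 12-base match, and a match on the other strand starts with GCC and ends with TGG.
Gmnc, lost, chr16:26968228-26968287, minus strand: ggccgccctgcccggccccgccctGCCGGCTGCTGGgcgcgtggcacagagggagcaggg
Defb28, lost, chr2:152518140-152518199, plus strand: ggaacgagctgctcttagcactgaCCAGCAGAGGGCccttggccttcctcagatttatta
Gpr37l1, lost, chr1:135167642-135167701, minus strand: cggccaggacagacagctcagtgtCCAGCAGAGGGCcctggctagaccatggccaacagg
Cul7, gained, chr17:46650328-46650387, plus strand: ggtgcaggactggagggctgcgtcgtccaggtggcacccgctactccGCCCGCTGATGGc
Selenov, gained, chr7:28291159-28291218, minus strand: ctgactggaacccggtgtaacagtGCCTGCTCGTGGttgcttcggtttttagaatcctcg
Adprhl2, kept, chr4:126321724-126321783, minus strand: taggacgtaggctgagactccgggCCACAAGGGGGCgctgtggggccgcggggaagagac
Fam133b, kept, chr5:3543742-3543801, plus strand: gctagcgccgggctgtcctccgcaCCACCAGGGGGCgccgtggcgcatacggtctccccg
Rgs9, kept, chr11:109298235-109298294, minus strand: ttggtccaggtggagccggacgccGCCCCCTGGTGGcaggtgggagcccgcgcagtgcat

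Gmnc encodes a geminin-related protein of multiciliated cells, and its site had fold enrichments of 7.98 and 10.5 in proliferating cells with no quiescent peak. Cul7 encodes a cullin scaffold of ubiquitin ligases, and its site had folds of 6.04 and 7.55 in quiescent cells with no proliferating peak. Adprhl2 encodes an ADP-ribose hydrolase, and its site had folds of 110 and 75.8 in quiescent cells, against 80.3 and 94.8 in proliferating cells. The gained and lost examples thus sit far below the kept one in fold. Fold enrichment here is the value that the authors' peak caller gave to each peak over its background, and it was used to describe peaks and to rank them within a library.

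The core was found in 797 of 32851 promoter windows, 2.43%. It was present in 4.56% of the 9123 windows that a kept CTCF site overlapped, in 2.98% of 369 windows with a lost site, in 4.82% of 83 windows with a gained site and in 1.34% of 20146 windows with no CTCF site. Windows with a kept site make up 27.8% of all windows, those with a lost site 1.12% and those with a gained site 0.253%. Where the summit itself lay in the window, the shares were 9.68% of 3090 kept, 7.14% of 126 lost and 9.38% of 32 gained windows. The gained share rests on 3 windows and the lost share on 9, so no order between them can be read. At kept sites, 379 matches lay at a median distance of 37 bp from the summit, 55.7% of them within 50 bp. The word CCAccAGggGGC made up 28 of those matches and none of the 262 matches in windows without CTCF, while CCAgaAGagGGC made up 18 and 36. A match is a run of letters and does not show that CTCF binds there.

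The state of the cells did not separate the number, width or spacing of CTCF peaks as whole lists. The quiescent libraries held 51835 and 71757 peaks, and the proliferating libraries 57528 and 55168, so quiescent replicate 2 stood apart. Median peak widths were 530 and 545 bp in quiescent cells, against 533 and 526 bp in proliferating cells. The lists covered 30.3 and 41.9 Mb in quiescent cells, against 34.6 and 33.5 Mb in proliferating cells. Median distances between neighbouring summits were 11957 and 9693 bp in quiescent cells, against 11127 and 11561 bp in proliferating cells. With 2 libraries against 2, an exact two-sided permutation test has 6 arrangements and cannot give a p below 0.333. The exact permutation p was 1 for peak number, 0.667 for width and 1 for spacing. The lists give no read totals, so the depth behind a peak is unknown.

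Wide peaks were the exception. Peaks over 1 kb made up 6.78% and 5.95% of the quiescent CTCF lists, against 8.13% and 8.93% of the proliferating ones, which do not overlap (exact permutation p = 0.333, the smallest possible). STAG2 went the other way, with 15.9% ± 0.820 of its peaks over 1 kb in quiescent cells and 13.9% ± 0.520 in proliferating cells (SD, n = 2 each). STAG1 had 11.2% ± 0.564 in quiescent and 12.4% ± 2.77 in proliferating cells, which overlapped.

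Relative to genes, CTCF peaks shifted away from gene starts in quiescent cells, although by little in replicate 1. A gene end here is the region within 1 kb of either end of a protein-coding gene, and 21887 genes were used, of which 17492 had a strand. CTCF peaks at gene ends made up 23.4% and 18.7% of the quiescent lists, against 23.3% and 24.8% of the proliferating lists, and these ranges overlap (exact permutation p = 0.667). At starts alone the shares were 15.605% and 12.2% in quiescent cells, against 15.638% and 16.6% in proliferating cells. These do not overlap, but replicate 1 of the quiescent cells missed the nearest proliferating library by a very small margin. Peaks inside genes but away from their ends made up 43.3% and 45.3% of the quiescent lists, against 42.9% and 42.5% of the proliferating lists. The 2 STAG proteins moved the opposite way at gene starts, with STAG2 at 25.8% ± 1.20 in quiescent and 20.6% ± 0.916 in proliferating cells, and STAG1 at 23.2% ± 0.212 and 20.3% ± 0.930 (SD, n = 2 each).

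Whether CTCF changed differently from the STAG proteins was tested on the 4 library values with the state permuted within each antibody, which gives a smallest p of 0.00926. The change of the gene-end share was 7.97 percentage points lower for CTCF than for the mean of STAG1 and STAG2 (a difference of -7.97, exact permutation p = 0.0185, adjusted over the 4 values 0.0741). The change of median spacing differed by -0.48 on the log2 scale (exact permutation p = 0.0463, adjusted 0.0926). The change of peak number differed by 0.44 on the log2 scale (exact permutation p = 0.0833, adjusted 0.111) and that of median width by 0 bp (exact permutation p = 1, adjusted 1). No value passed after adjustment. Without quiescent replicate 1 of CTCF the adjusted p of the first 3 differences was 0.0123, from 108 arrangements of an exact permutation, so the calls rest on how the 2 quiescent libraries are weighed.

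At single sites, few CTCF sites were called in both libraries of 1 state and in neither library of the other. The 4 lists joined into 86900 sites, a site being a set of peaks that share at least 1 bp. Both quiescent libraries and no proliferating library held 3479 gained sites, 4% of all sites, and both proliferating libraries and no quiescent library held 2057 lost sites, 2.37%. All 4 libraries held 36411 kept sites, 41.9%. A further 16923 sites had a peak in 1 quiescent library alone and 9375 in 1 proliferating library alone. Sites in 1 library of each state numbered 7727. Of them, 3896 were in quiescent replicate 2 with proliferating replicate 1, and 2596 in quiescent replicate 2 with proliferating replicate 2. Of the sites in 1 quiescent library alone, 14308 were in quiescent replicate 2, which is 19.9% of its list, against 2615 in quiescent replicate 1, 4448 in proliferating replicate 1 and 4927 in proliferating replicate 2. Absence from a single library was most frequent for quiescent replicate 1, which missed 4189 sites that the other libraries held. The counts were 1106 for quiescent replicate 2, 2024 for proliferating replicate 1 and 3609 for proliferating replicate 2. The bases shared by 2 lists, as a fraction of the bases in either, were 0.567 for the quiescent and 0.616 for the proliferating pair. Across states the fraction lay between 0.534 and 0.599, so replicates of a state were not always the more alike.

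The excess of gained over lost sites was not stable. With every list cut to the 51835 peaks of lowest p, 2494 sites were gained and 2774 lost. Without quiescent replicate 2, 6165 sites were gained and 6285 lost, and without proliferating replicate 2, 5526 and 6624. Without quiescent replicate 1, 17834 were gained and 3186 lost. The number of gained sites thus moved with the library left out, and no direction of net change is given here.

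**Figure D1:**
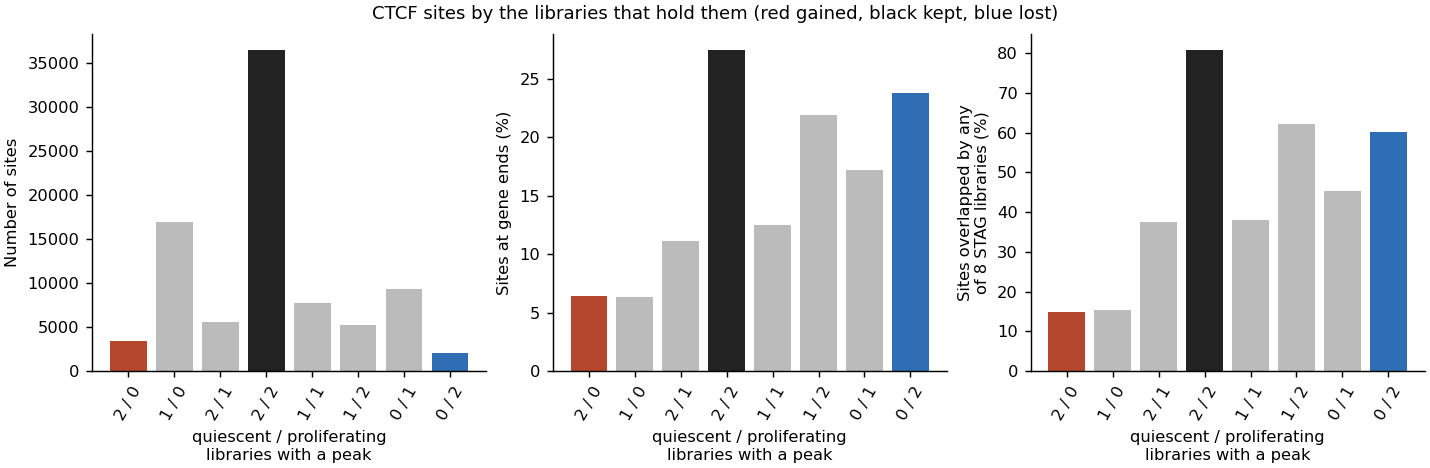
Bars give the number of CTCF sites (left), the percent at gene ends (middle) and the percent overlapped by any of the 8 STAG libraries (right), by how many of the 2 quiescent and 2 proliferating libraries held a peak. Gained sites (2 / 0, red) lie at gene ends in 6.44% of cases, lost sites (0 / 2, blue) in 23.8% and kept sites (2 / 2, black) in 27.4%.

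Gained and lost CTCF sites were both weak, but they lay in different places. The rule for the classes favours low fold, since a site missing from some libraries tends to be weak. Over all patterns that lacked a library, the median fold lay between 4.79 and 6.80. Median fold was 6.17 at gained, 5.50 at lost and 12.6 at kept sites, and the highest fold of a site's mean was 17.97, 15.8 and 132. Gained sites lay at a gene end in 6.44% of cases (Wilson 95% interval 5.67 to 7.30%), lost sites in 23.8% (22.0 to 25.7%) and kept sites in 27.4% (27.0 to 27.9%). Intervals here cover counting error only. For genes with a strand, 3.05% of gained, 16.0% of lost and 18.5% of kept sites lay at the start, and 2.53%, 4.33% and 5.27% at the 3' end. Gained sites lay inside genes in 53.1% of cases, lost sites in 44.5% and kept sites in 40.7%. The low gene-end share of gained sites resembled that of the 14308 sites of quiescent replicate 2 alone, 5.42%. In the same replicate, 18.7% of all peaks were at gene ends.

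The order of gained below lost held under the settings run for it. Over the 4 settings that each left out 1 CTCF library, the gene-end share lay between 5.66% and 9.59% for gained and between 18.1% and 27.3% for lost sites. With equal list lengths it was 5.89% for gained and 23.0% for lost sites, and with a −log10 q of at least 5 it was 6.89% and 28.5%.

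Changed sites lay among kept ones. The median distance from a gained site to the nearest kept site was 10602 bp, from a lost site 10452 bp, and from a kept site to the next 7986 bp. The nearest changed or kept neighbour of a gained site was another gained site in 14.2% of cases, against 6.76% for lost and 7.64% for kept sites. For lost sites the nearest neighbour was another lost site in 7.34% of cases, against 3.56% for gained and 4.59% for kept sites. Each kind of changed site thus had neighbours of its own kind more often than the other kinds had.

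Gained CTCF sites had few STAG peaks. No STAG library overlapped 85.1% of gained sites, against 39.8% of lost and 19.3% of kept sites, and all 8 STAG libraries overlapped 1.24%, 12.5% and 50.5%. These libraries played no part in choosing the sites. Of the 16923 sites in 1 quiescent library alone, 15.3% were in any STAG library, against 14.9% of gained sites. Few STAG peaks were therefore not particular to sites gained in both quiescent libraries. For sites in 1 proliferating library alone the share was 45.4%. Single STAG libraries overlapped 4.28 to 8.34% of gained, 27.1 to 43.4% of lost and 60.04 to 71.0% of kept sites, and in each of the 8 libraries the lost share was above the gained share. Without each CTCF library in turn, the share in no STAG library was 71.7 to 86.7% for gained and 34.0 to 51.0% for lost sites.

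**Figure D2:**
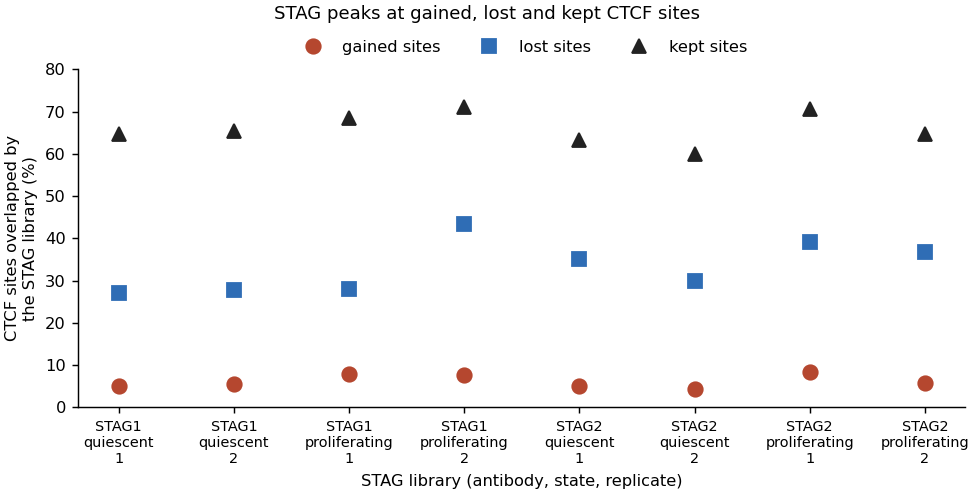
The percent of gained (red circles), lost (blue squares) and kept (black triangles) CTCF sites that each of the 8 STAG libraries overlapped. In every library kept sites lie highest, between 60.04 and 71.0%, and gained sites lowest, between 4.28 and 8.34%.

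Whether STAG followed CTCF at changed sites was tested in the STAG libraries. The share of gained minus the share of lost CTCF sites that a STAG library overlapped averaged -25.1 percentage points in quiescent and -29.4 in proliferating cells. The difference of 4.38 points did not pass (exact permutation p = 0.389, 36 arrangements, smallest possible 0.0556). The share of sites with STAG, quiescent minus proliferating, was -2.43 points at gained, -6.81 at lost and -5.33 at kept sites, each with an exact permutation p = 0.0556, the smallest that the design allows. The sign was therefore the same where CTCF was gained as where it was lost. At the remaining CTCF sites the difference was -4.32 points. The STAG lists themselves were shorter in quiescent cells. STAG1 lists averaged 36137 ± 768 peaks in quiescent and 44662 ± 8210 in proliferating cells, and STAG2 lists 36344 ± 2917.5 and 46438 ± 1211 (SD, n = 2 each). The part of list length in these differences was not tested.

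CTCF peaks without STAG were also more frequent in the quiescent lists as a whole. No STAG library overlapped 31.8% and 44.9% of quiescent CTCF peaks, against 30.2% and 29.7% of proliferating ones. With lists of equal length the shares were 31.8% and 37.5% in quiescent cells, against 28.1% and 28.6% in proliferating cells. Among the 20000 peaks of lowest p in each list they were 9.52% and 11.3% in quiescent cells, against 4.92% and 6.51% in proliferating cells. The states did not overlap in any of these comparisons (exact permutation p = 0.333 each, the smallest possible). All 4 CTCF libraries were set against the same 8 STAG libraries. This comparison was chosen after seeing the data.

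The strongest lost sites at gene ends spanned unrelated genes. The first was at the start of Lsm5, a subunit of the ring that binds U6 RNA, at chr6:56704295-56704952, with folds of 13.97 and 12.97 in the proliferating libraries. It was overlapped by 3 of 4 quiescent and 4 of 4 proliferating STAG libraries, so STAG peaks were present where no quiescent CTCF peak was called. Sites followed at the start of Gpr158, an orphan receptor gene, with folds of 10.8 and 13.8, and at the 3' end of Uchl1, a neuronal ubiquitin hydrolase gene, with 11.0 and 13.5. At the 3' end of Nf1, which encodes the RAS GTPase activator neurofibromin, the proliferating folds were 11.5 and 10.9. Others lay at Gpx2, a glutathione peroxidase gene of epithelia, at Cers1 and Gdf1, which share a site, at Cdhr2 and Gprin1, at Tafa4, at Ciart, a circadian repressor gene, and at Klhl26. Their mean folds lay between 8.98 and 10.2.

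The strongest gained sites had mean folds of 8.17 to 11.2 and few STAG peaks. The first was at the 3' end of Cyp4f14, a cytochrome P450 gene, at chr17:32904347-32904890, with folds of 7.98 and 14.5 in the quiescent libraries. An end of Gnrh1, which encodes gonadotropin-releasing hormone, had folds of 8.48 and 12.97. The start of Arhgdia had 6.87 and 13.7. The 3' end of Nupr1, a stress-induced chromatin regulator gene, had 7.98 and 9.98. Others were at Rbm34, Ly6g6f, Ccdc28b with Iqcc, Atp2b3, Pip5k1a and H2-T-ps. Of these 10 sites, 7 had no STAG peak in any library and 3 had one in a single proliferating library.

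Kept sites at gene ends reached folds near 100. The site at the 3' end of Ivd had 110 and 96.3 in quiescent cells, against 89.8 and 110 in proliferating cells. At the start of Piezo1, a stretch-activated channel gene, folds were 113 and 89.2 in quiescent cells, against 88.0 and 100.02 in proliferating cells. At the shared start of Dtl, which encodes a substrate receptor of a ubiquitin ligase that acts in S phase, and Ints7 they were 119 and 86.9 in quiescent cells, against 81.5 and 101 in proliferating cells. The others among the 10 highest were at Kiss1r, Scnn1g, Prpf8 with Rilp, Top1mt, Adprhl2 with Tekt2, Man2b2 and Nob1. All 10 were overlapped by all 8 STAG libraries.

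Gained sites made up more of the changed sites on the X chromosome and on chromosomes 4, 9, 14, 17 and 18 than over the genome, with intervals above the genome's value. These intervals cover counting over sites and not the spread between the 2 libraries of a state. Other settings were run for X alone, and on chromosomes 14 and 18 the CTCF peak shares of the states overlapped. Gained sites made up 62.8% of all changed sites, and 91.8% on X, where 145 were gained and 13 lost (Wilson 95% interval 86.4 to 95.1%). The share was 81.0% on chromosome 14, 79.7% on chromosome 4 and 79.5% on chromosome 17. It was 72.6% on chromosome 18 (65.3 to 78.8%) and 68.7% on chromosome 9 (63.4 to 73.6%). It was lowest on chromosome 15 at 41.4%, chromosome 6 at 43.3% and chromosome 5 at 49.0%. The share of all CTCF peaks that lay on X was 1.78% and 2.08% in quiescent cells, against 1.57% and 1.17% in proliferating cells. The state means of the log2 shares differed by 0.51. The states did not overlap, and proliferating replicate 2 was the lowest by far. In the 8 STAG libraries the X share lay between 1.39% and 1.65%, and the states overlapped for both antibodies.

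Leaving out a library or shortening lists moved this value but not its place above the genome. With equal list lengths the gained share was 81.9% on X and 47.3% over all chromosomes. Without proliferating replicate 2 it was 64.1% on X and 45.5% over all chromosomes. Without each other CTCF library it was between 80.8% and 95.9% on X. Over the 20 chromosomes other than Y, the CTCF peak share of both quiescent libraries lay above both proliferating ones on 4 (4, 9, 17 and X) and below on 6 (2, 5, 6, 12, 15 and 19), with overlap on 10. For STAG1 these counts were 1, 2 and 17, and for STAG2 2, 0 and 18. Copy number of the chromosomes in the cultures is not measured by peak lists, and its part in these shares was not tested.

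**Figure D3:**
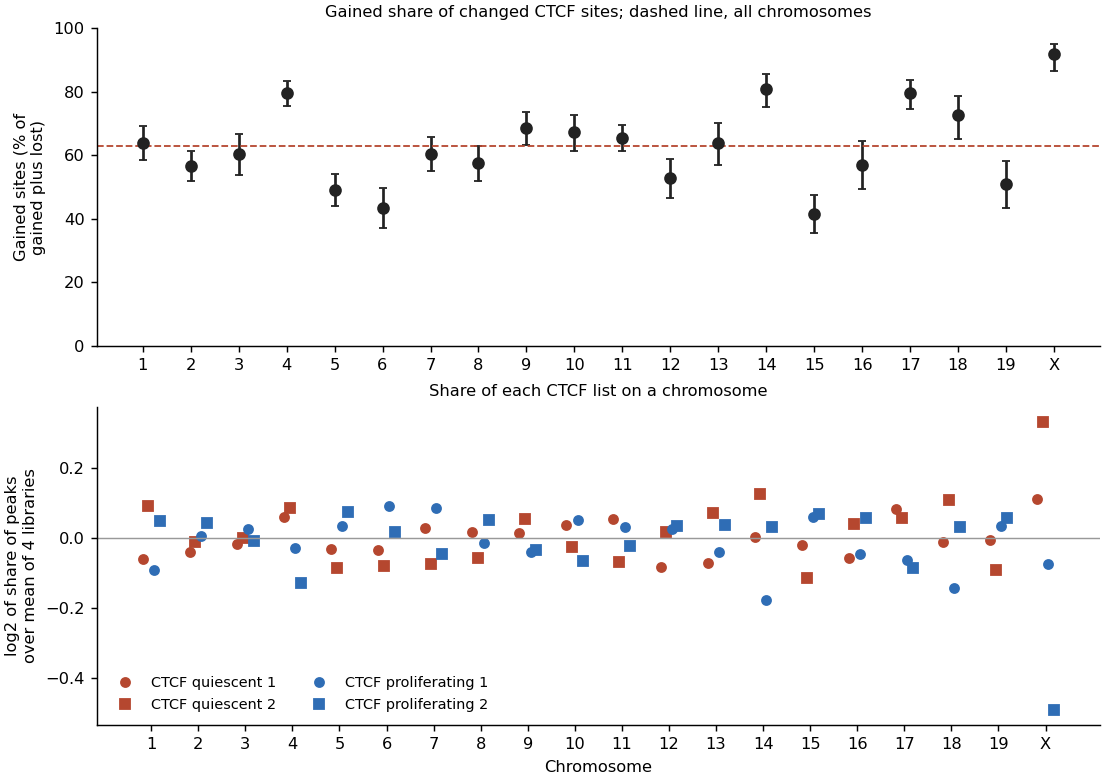
Top, gained sites as a percent of gained plus lost CTCF sites on each chromosome, with Wilson 95% intervals and the value of 62.8% over all chromosomes as a dashed line. Bottom, each CTCF library's share of peaks on a chromosome over the mean of the 4 libraries (log2), with quiescent libraries in red and proliferating libraries in blue. On X both quiescent libraries lie above both proliferating ones.

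Windows of 1 Mb with the largest excess of gained or of lost sites also held many kept sites. The window with the largest excess of gained sites, from 28000001 to 29000000 on chromosome 17, held 16 gained, 2 lost and 77 kept sites. It contains Fkbp5, which encodes a co-chaperone of steroid receptors and had 3 of the changed sites, and Ppard, which encodes a nuclear receptor related to PPAR gamma and had 2. The window from 46000001 to 47000000 on the same chromosome held 13 gained, 1 lost and 54 kept sites, with 4 changed ones in Ptk7, a receptor-like kinase gene. The window from 128000001 to 129000000 on chromosome 10 held 13 gained, 1 lost and 87 kept sites, with 3 changed ones in Baz2a, which encodes a subunit of the nucleolar remodelling complex. The largest excesses of lost sites lay on chromosome 10 from 81000001 to 82000000, with 1 gained, 10 lost and 89 kept sites and 2 changed ones in the corepressor gene Tle2, and on chromosome 15 from 86000001 to 87000000, with 0 gained, 9 lost and 23 kept sites and 4 changed ones in Gramd4. Chromosome 15 from 101000001 to 102000000, which holds type II keratin genes, had 2 gained, 9 lost and 66 kept sites. Whether changed sites gathered beyond the density of CTCF sites was not tested. Of 2525 windows with any CTCF site, 1339 held a gained and 1048 a lost site, and 729 held both.

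At kept sites the shift of fold rank between states varied with the number of STAG libraries at the site. Gene-end location varied with it too, from 7.86% of sites in no STAG library to 40.6% in all 8, and was not separated from it. Ranks were percentiles of fold within the same 36411 kept sites of each library. Both quiescent ranks lay above both proliferating ranks at 7193 kept sites, 19.8%, and below them at 7529, 20.7%. Of the 6 arrangements of 2 libraries against 2, 1 puts both quiescent ranks above and 1 puts both below. Many such sites would therefore arise without any difference between the states. The gap was at least 20 percentile points at 702 of the sites ranked above, 1.93% of all, and at 690 of those ranked below, 1.9%. At the 7012 kept sites in no STAG library these shares were 41.2% above and 11.3% below. At the 18382 sites in all 8 STAG libraries they were 10.5% and 22.5%. The median rank of sites in no STAG library was 31.0 and 33.2 in the quiescent libraries, against 22.8 and 23.7 in the proliferating libraries. For sites in all 8 STAG libraries it was 70.1 and 67.9, against 71.4 and 70.1. The median shift, quiescent mean minus proliferating mean, was 7.98 percentile points in no STAG library and -1.121 in all 8.

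The share of sites that ranked higher in quiescent cells fell step by step with each added STAG library, to 31.5% for 1, 19.8% for 4 and 13.4% for 7. The pattern was present within each quartile of the mean rank, where the median shift lay between 5.66 and 12.1 points for sites in no STAG library and between -6.91 and -0.056 for sites in all 8. The highest quartile held 54 sites in no STAG library, against 3387 in the lowest, so its value rests on few sites. Without each CTCF library in turn, it lay between 6.19 and 9.32 for the first and between -2.27 and -0.0999 for the second. Without quiescent replicate 2, 52.2% of sites in no STAG library ranked above both proliferating libraries and 22.7% below, against 33.9% and 32.4% of all kept sites. For sites in all 8 the shares were then 28.9% and 33.3%, so the share below was close to that of all kept sites. The split by STAG was chosen after seeing the data.

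**Figure D4:**
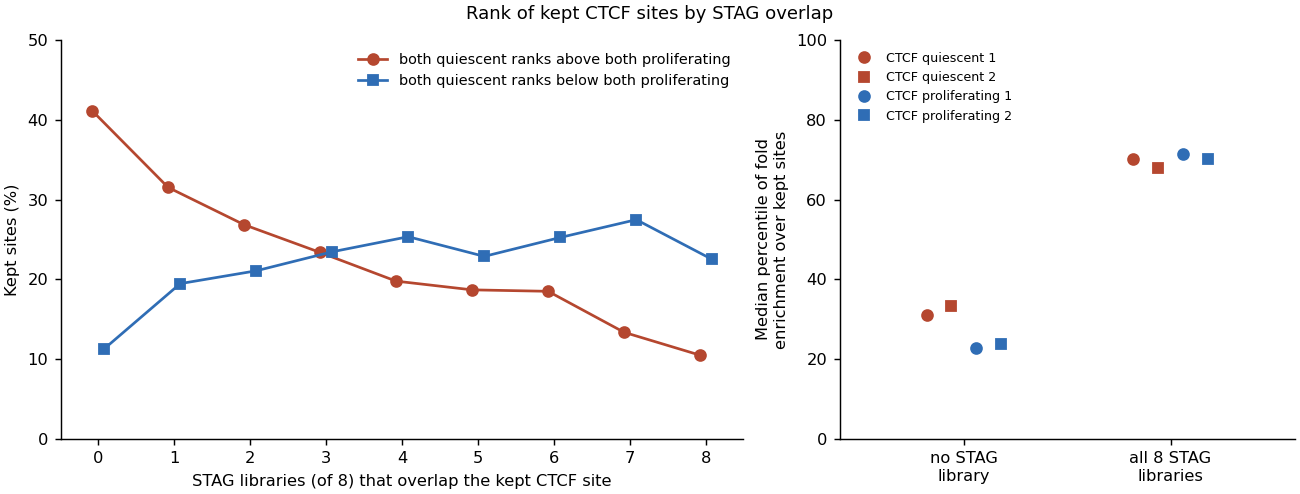
Left, the percent of kept CTCF sites whose 2 quiescent fold ranks both lay above (red) or both below (blue) the proliferating ranks, by the number of STAG libraries at the site, from 41.2% above with none to 10.5% with all 8. Right, the median rank percentile in each CTCF library at kept sites with no STAG library and with all 8.

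The rank shift of gene-end sites as a group depended on the libraries used. Their median rank was 52.3 and 42.7 in the quiescent libraries, against 51.0 and 56.2 in the proliferating libraries, and the median shift was -2.12 points. It was 0.271 without quiescent replicate 2, -0.727 without proliferating replicate 2, -5.19 without quiescent replicate 1 and -3.63 without proliferating replicate 1. Single sites moved further. The largest rises were at H4c14, a histone H4 gene, with ranks of 72.0 and 79.6 in quiescent cells, against 27.7 and 18.03 in proliferating cells, and at E4f1, a cell cycle regulator gene, with 64.2 and 55.3, against 2.11 and 19.9. Tmem267, Abi2, which encodes an actin regulator, and the zinc finger gene Zfp809 followed. The largest falls were at Nek2, a centrosomal kinase gene, and Cdkn2d, which encodes a CDK4 inhibitor. Cdkn2d ranked 20.8 and 14.5 in quiescent cells, against 70.996 and 68.4 in proliferating cells. Gldn, Rtn4rl2 and Matn3 followed, with shifts between -49.6 and -47.4 points.

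Cell cycle genes make up much of the interest in quiescence, because the DREAM complex represses them there. A gene was ranked by its strongest kept site that touched a gene end as joined over the 4 libraries, so that the peak of a single library need not reach the end. Of 9761 genes with such a site, 10.7% had it ranked above in both quiescent libraries and 24.3% below. Of the DREAM G2/M list, 3 of 28 genes ranked above and 9 below. Of the G1/S list, 1 of 39 ranked above and 11 below. Of the DREAM and MuvB subunits, 0 of 12 ranked above and 5 below. Without quiescent replicate 2 the counts were 7 above and 10 below, 9 and 16, and 4 and 5, beside 33.6% and 31.7% of all such genes. The lists overlap (Foxm1 is in 2), the share below is modestly above that of all genes, and the lists were not tested.

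Among the G2/M genes, Nek2 had the largest fall. Its ranks were 3.73 and 1.11 in quiescent cells, against 50.2 and 64.5 in proliferating cells, with folds of 4.33 and 4.00, against 12.97 and 15.97. The strongest peak at either end of Nek2 had folds of 5.49 and 8.98 in the quiescent libraries, so another peak there was stronger than the one ranked. Foxm1, which encodes a mitotic transcription factor, ranked 7.02 and 0.327 in quiescent cells, against 34.8 and 33.7 in proliferating cells. Cenpm, a centromere protein gene, ranked 10.5 and 18.6, against 44.3 and 42.0. Plk1, the mitotic kinase gene, ranked 19.3 and 3.39, against 37.4 and 33.1. In each of these 4 genes both quiescent libraries lay below both proliferating ones by more than 10 points. Against the direction, Spc24, a kinetochore gene, ranked 34.7 and 72.4 in quiescent cells, against 11.6 and 23.7 in proliferating cells. That site had no STAG library. The strongest peak at either end of Spc24 had folds of 7.98 and 24.5 in quiescent cells, against 10.5 and 7.48 in proliferating cells. By that peak the states overlapped.

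Of the G1/S genes, Rpa2, a subunit gene of the single-strand binding protein, ranked 12.7 and 24.9 in quiescent cells, against 51.9 and 46.5 in proliferating cells. Cdt1, which encodes a replication licensing factor, ranked 36.7 and 32.8, against 49.5 and 63.0. Rfc5, a clamp loader subunit gene, ranked 76.1 and 76.3, against 92.4 and 89.95. Among the subunits, Lin9, a MuvB gene, ranked 23.6 and 11.2 in quiescent cells, against 36.4 and 65.3 in proliferating cells, and E2f4, which encodes the repressor E2F of the complex, 28.5 and 16.9, against 37.1 and 36.7.

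**Figure D5:**
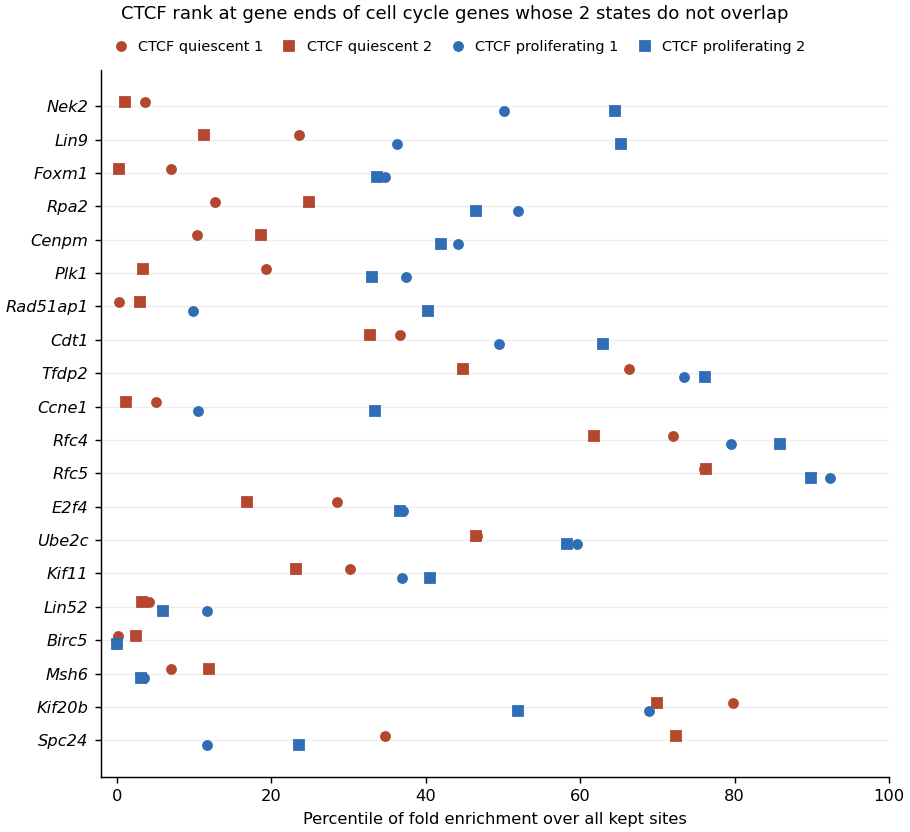
Rank percentile of the strongest kept gene-end CTCF site in the 2 quiescent (red) and 2 proliferating (blue) libraries, for up to 6 genes in each direction from each of the 3 DREAM lists whose states do not overlap. Most genes shown lie lower in quiescent cells, with Nek2 the farthest at 3.73 and 1.11, against 50.2 and 64.5.

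Over all protein-coding genes, gene-end CTCF in both libraries of a state was present at 46.6% in quiescent and 50.1% in proliferating cells, and the single libraries occupied 10815 and 11601 genes in quiescent cells, against 11796 and 11994 in proliferating cells. In all 4 libraries 44.3% of genes were occupied. Of 21887 genes, 95 gained occupancy (0.434%) and 343 lost it (1.57%). Occupancy was read from peaks at gene ends, so the joined site there need not be lost or gained. Both quiescent libraries occupied 39 and both proliferating libraries 51 of the 68 G1/S genes, and 1 gene was lost, Mybl2, which encodes a MuvB partner of the S and G2 phases. Per library the counts were 45 and 50 in quiescent cells, against 53 and 55 in proliferating cells. For the 60 G2/M genes these numbers were 29 and 35, with 32 and 41 in the single quiescent libraries, against 43 and 41 in the proliferating ones, and Kif18a, Anln and Ect2, genes of a mitotic kinesin and of cytokinesis, were lost. Mybl2 and these 3 had proliferating folds between 2.80 and 5.95, near the lower end of the lists.

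Genes of the pathways that the drugs act on were also described. Of the EGF receptor and MAPK response list, 36 genes had CTCF at an end in both quiescent libraries and all 38 in both proliferating libraries. Dusp2, a MAPK phosphatase gene, was the lost member, with proliferating folds of 4.49 and 7.48. Of 36 genes with a kept site in this list, 5 ranked above and 7 below in quiescent cells, which is 13.9% and 19.4%, beside 10.7% and 24.3% of all genes. Without quiescent replicate 2 the counts were 17 above and 8 below, beside 33.6% and 31.7% of all genes. Etv5, an ETS factor gene induced by the pathway, ranked 42.7 and 49.6 in quiescent cells, against 85.3 and 73.0 in proliferating cells. Phlda1 ranked 61.9 and 44.3, against 87.8 and 83.5. Junb, an AP-1 gene, ranked 66.0 and 78.1, against 56.9 and 37.0. Both directions were thus present.

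PPAR gamma targets of lipid metabolism numbered 30, of which 15 had CTCF at an end in both quiescent libraries and 16 in both proliferating libraries. Plin2, a lipid droplet coat gene, gained occupancy by weak peaks, with quiescent folds of 5.49 and 4.49. Cidec, a lipid droplet gene, and Lpl, which encodes lipoprotein lipase, lost occupancy. Their proliferating folds were 5.93 and 10.9 and 4.99 and 7.67. Of all genes with a kept joined site at an end, 10.7% ranked above and 24.3% below, and 33.6% and 31.7% without quiescent replicate 2. Of 16 targets whose end such a site touched, 0 ranked above and 2 below, and 3 and 4 without that replicate. The 2 were Pck1, a gluconeogenesis gene, with ranks of 65.4 and 58.2 in quiescent cells, against 77.2 and 83.8 in proliferating cells, and Plin4, a lipid droplet coat gene, with 34.7 and 19.99, against 56.2 and 62.0. At Plin4 the peak itself reached the gene end in 1 library of each state. Of the urothelial differentiation list, both quiescent libraries occupied 27 and both proliferating libraries 30 of 36 genes. Foxa1, a pioneer factor gene, lost occupancy, with proliferating folds of 4.99 and 5.49. Of 27 genes with a kept site, 7 ranked above and 3 below, which is 25.9% and 11.1%, and 11 and 5 without quiescent replicate 2. Krt7, a keratin gene of simple epithelia and urothelium, ranked 32.3 and 18.3 in quiescent cells, against 1.96 and 3.24 in proliferating cells, and Upk3bl, a uroplakin-like gene, 42.9 and 46.6, against 24.7 and 25.7. The 3 below were the epithelial factor genes Ovol1 and Ovol2 and the keratin gene Krt19. Ovol1 ranked 11.8 and 13.4 in quiescent cells, against 20.5 and 26.5 in proliferating cells. Ovol2 ranked 22.2 and 8.39, against 26.9 and 33.5, and Krt19 65.03 and 61.4, against 71.9 and 76.1. The strongest peak at either end of Ovol2 had folds of 6.32 and 8.76 in quiescent cells, against 11.98 and 8.25 in proliferating cells. By that peak the states overlapped.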

How the data were processed

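Sample groups came from the labels. Per the submitters' processing notes, bcl2fastq, BWA, Picard, MACS2 and HOMER were used with the build mm10, without versions. The authors deposited 1 peak list per library, so replicates were not pooled. Per the deposited lists, each peak carries a fold enrichment (a ratio over background) and its p and q as −log10 values, besides a score and the offset of its summit. The smallest peak was 330 bp wide, and the smallest −log10 q of a CTCF list lay between 1.31 and 1.41. The sample titled input carries an IgG label, so which of them the background was is not settled, and it was not analysed here.

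From these lists were computed sites (overlap of at least 1 bp), gene-end overlap (1 kb), spacing of summits and fold ranks over kept sites, with Python 3.11.15, numpy 2.4.6, pandas 2.3.3 and scipy 1.17.1. Gene positions and sequences came from RefSeq GRCm38.p6. Where genes overlap or share an end, they share its sites. Exact permutation tests were two-sided over libraries. Site counting and overlaps were checked on simulated data, and the permutation of 2 libraries against 2 on 1 set of made-up values. The permutation within antibody, the sign-flip test and the adjustment were not checked in this way. Counts of sites, lists and ranks have no test. Quiescent replicate 1 and 2 were not paired with the proliferating numbers by the labels. Stricter q, equal lengths, other overlaps, windows, motif and left-out libraries were tried.

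Genes named at lost, gained and kept sites were the 10 of highest fold percentile at gene ends, and for rank shifts the 5 largest per direction. For the listed genes, members with changed occupancy were named, and those with rank shifts were chosen after their values were seen. The compared libraries and the 19 gene lists were chosen with earlier results of these data known.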

Additional observations from a re-analysis of the deposited data

Results flagged for a closer look

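Of 32 measures of the lists examined for both CTCF and the STAG proteins, 3 had both quiescent CTCF libraries on one side of both proliferating ones and both STAG antibodies on the opposite side. The share of peaks at gene starts averaged 13.9% in quiescent and 16.1% in proliferating cells for CTCF, 23.2% and 20.3% for STAG1 and 25.8% and 20.6% for STAG2, a CTCF change 6.25 percentage points below that of STAG (-6.25). The share inside genes averaged 44.3% in quiescent and 42.7% in proliferating cells for CTCF, 35.98% and 38.5% for STAG1 and 34.6% and 38.6% for STAG2, a difference of 4.89 points. The share of peaks on chromosome 19 averaged 3.40% in quiescent and 3.63% in proliferating cells for CTCF, 3.76% and 3.44% for STAG1 and 3.72% and 3.50% for STAG2, a difference of -0.497 points. The measures were picked because their groups do not overlap, so these differences were not tested. The design has 2 libraries per group. At gene starts quiescent replicate 1 of CTCF, at 15.605%, lay just below proliferating replicate 1, at 15.638%, and quiescent replicate 2 was at 12.2%.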

How the results depend on the processing

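No result passed a test as reported, and 195 values were recomputed. Of these, 140 kept their direction and their side of the threshold or, where there is no test, stayed within a limit. The limit was a set one for counts and the motif ratio, the Wilson interval for shares and the replicate spread for rank shifts. Tests on the CTCF libraries alone and the STAG contrast cannot reach 0.05, so their side of the threshold was fixed in advance. The sizes of tested values still moved, as the ranges show. Sign changes numbered 4. The log2 ratio of peak numbers (0.11) ranged from -0.12 to 0.35 and that of spacing from -0.23 to 0.076 without 1 library each, and spacing was 0.0031 with equal lengths. The width difference (8 bp) was -3.5 with a −log10 q of at least 5, and 0.5 to 15.5 without 1 library. The gene-end difference ranged from -5.39 to -0.603 points. For CTCF minus STAG the ranges were 0.20 to 0.67 for peak number, -7.5 to 7.5 bp for width, -10.4 to -5.58 points for gene ends and -0.63 to -0.33 for spacing, and all but width passed only without quiescent replicate 1 (exact permutation, adjusted p = 0.0123). The STAG contrast ranged from 0.467 to 8.29 points.

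Leaving out 1 library changes the rule for a site by construction. Gained sites then ranged from 5526 to 17834, lost from 3186 to 7100 and kept from 37613 to 40668. At gene ends lay 18.1 to 27.3% of lost and 5.66 to 9.59% of gained sites, and in no STAG library 34.0 to 51.0% and 71.7 to 86.7%. The median rank shift ranged from 6.19 to 9.32 points in no STAG library and from -2.27 to -0.0999 in all 8. Genes ranged from 215 to 413 gained and 621 to 1004 lost. With a −log10 q of at least 5, 28.5% of lost sites were at gene ends and 86.3% of gained sites in no STAG library, which was 83.7% with equal lengths. By quartile of the mean rank, the shift in no STAG library was 5.66, 10.3, 12.1 and 11.5 points and in all 8 -5.09, -6.91, -2.75 and -0.056. The X share ranged from 64.1% to 95.9% and was 81.9% at equal lengths.

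Replicate numbers did not pair the libraries (r = -0.200 of replicate differences over 36411 kept sites). With a replicate block by number the log2 ratio of peak numbers was 0.11, width 8 bp, gene ends -2.99 points and spacing -0.08. An exact sign-flip test of such a block has 4 arrangements and cannot give a p below 0.5. No value could therefore pass, with numbers as labelled or with crossed numbers, which were added after seeing the data. The cause of these changes was not tested. Depth is unknown, so weak peaks near the calling threshold limit every site count.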

Other observations

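Genes of other groups also had CTCF sites at their ends. Of 51 ribosomal protein genes with a kept site, 11 ranked above in both quiescent libraries and 8 below, which is 21.6% and 15.7%, beside 10.7% and 24.3% of all genes. Without quiescent replicate 2 the counts were 24 and 12, beside 33.6% and 31.7%. Rpl7a, at a site in no STAG library, had ranks of 73.2 and 63.0 in quiescent cells, against 52.7 and 44.9 in proliferating cells. Of 80 ribosomal genes, 55 were occupied in both quiescent and 60 in both proliferating libraries. Rpl39, on X, gained occupancy, with folds of 4.33 and 4.33.

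In a list of 67 histone genes, both quiescent libraries occupied 57 and both proliferating libraries 62. H4c9 and H1f5 lost gene-end occupancy, with proliferating folds of 4.64 and 34.01 and of 3.32 and 6.001. The fold of 34.01 was also the proliferating replicate 2 fold of H2ac11 and H2bc11, which were occupied in all 4 libraries. A kept joined site touched an end of 59 of the 67 genes, of which 3 (5.08%) ranked above and 15 (25.4%) below, at 2 and 10 separate sites. Without quiescent replicate 2 the counts were 11 and 15. Of all genes 10.7% ranked above and 24.3% below, and 33.6% and 31.7% without that replicate. H1f10, a linker histone gene, ranked 31.0 and 24.9 in quiescent cells, against 51.9 and 56.2 in proliferating cells. Of 39 Hox genes, 24 were occupied in each state. Hoxc6 and Hoxc11 lost occupancy by weak peaks, with folds of 3.67 and 4.49 and of 3.99 and 3.49. Of 23 Hox genes with a kept site, 2 ranked above and 6 below, which is 8.70% and 26.1% and near the shares of all genes. In the clustered protocadherins, 17 of 21 genes ranked below, all by 1 shared site, and Pcdhac1 lost occupancy. Of 34 insulator and imprinted loci, 24 had CTCF in both quiescent libraries and 21 in both proliferating libraries, and Usp29 and Peg3, which share a site, ranked 85.0 and 83.3 in quiescent cells, against 76.8 and 76.2 in proliferating cells. Of 21 with a kept site 4 ranked above and 4 below, and the site shared by the imprinted Sgce and Peg10 ranked 88.4 and 85.3 in quiescent cells, against 94.2 and 92.3 in proliferating cells.

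Some long genes held several changed sites inside them. Macf1, Rere and Tnrc6c each had 5 gained and 0 lost, Camta1 had 4 gained and 2 lost, and Kif13b had 4 and 0. Gramd4 and Mcf2l had 0 gained and 4 lost, Cdh13 1 and 4, Myo10 2 and 4, and Dlgap2 0 and 3. Their length was not corrected for.

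The other lists are given by their occupied genes, beside 46.6% of all genes in both quiescent and 50.1% in both proliferating libraries. Over all genes, 0.434% gained and 1.57% lost occupancy. Cohesin, regulators and CTCF genes numbered 29, with CTCF at 12 in both quiescent and 15 in both proliferating libraries and Mau2 lost. In the same order, basal urothelium genes were at 11 and 12 of 25 with Lama3 lost, CDK inhibitors and growth arrest genes at 27 and 27 of 32 with Nupr1 gained, DREAM and MuvB subunits at 12 and 13 of 14 with Mybl2 lost, clustered protocadherins at 21 and 23 of 57, olfactory receptors at 14 and 12 of 1106 with Olfr555 gained and Olfr212 lost, epithelial markers at 4 and 5 of 10, fibroblast markers at 2 and 2 of 8, immune markers at 3 and 4 of 10 with Cd79a lost and neuron markers at 5 and 6 of 8 with Nefl lost. Of all genes with a kept site, 10.7% ranked above and 24.3% below, and 33.6% and 31.7% without quiescent replicate 2. Of 10 olfactory receptor genes with a kept site, 1 ranked above and 6 below, and 2 and 8 without that replicate. Of 26 CDK inhibitor and growth arrest genes 2 ranked above and 4 below, of 11 basal genes 2 and 3, and of 12 cohesin and regulator genes 2 and 0.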
